A study of Mus musculus with 75 samples.

Results

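The comparison described here set SST-Cre neurons of the mouse visual cortex after 7.5 h of light against the same neurons after 1 h of light, in 3 libraries each. These 6 libraries were taken by their line, light time and replicate number from the 75 samples of the series, 73 of which have values. Both groups were C57BL/6 mice of 8 weeks that carried 1 copy each of SST-Cre and of the RiboTag allele Rpl22-HA, which puts an HA tag on a ribosomal protein in cells that express Cre. The tag stays on once Cre has acted, so it marks cells that expressed Cre from the Sst gene at any time. All animals were first housed in darkness, and each library combined the visual cortices of 3 animals. Tagged ribosomes were pulled down, 5 to 10 ng of the bound RNA was amplified with SPIA, and single-end reads of 50 bases were sequenced. The study also took mice from darkness, after 3 h of light and from standard housing, and 4 other Cre lines (PV, VIP, Emx and Gad2). The labels call the 3 samples of a group biological replicates. They do not give the hour of day at which animals were taken, so the length of light and the hour of collection cannot be told apart. The values are RNA bound to ribosomes of all cells that carry the tag, so fewer cells of a type and less RNA per cell cannot be told apart.

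SST neurons are inhibitory interneurons that mostly contact the dendrites of pyramidal cells and release the peptide somatostatin beside GABA. When activity rises after darkness, neurons first switch on immediate early genes, many of which encode transcription factors such as those of the FOS, EGR and NR4A families. These transcripts are short-lived, and the factors act on a later set of genes that encode secreted, synaptic and signalling proteins and that differs between types of neuron. A comparison of a late with an early time of light therefore sets the late set against the early one.

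The stretches below come from RefSeq promoters (GRCm38.p6), which run from 250 bases before to 50 bases after a gene's start. They are shown because they hold a searched motif upstream of the start of a gene that changed. The motifs are those of FOS and JUN proteins (AP-1, searched as TGANTCA with N any base) and of CREB (the full CRE, TGACGTCA). Both factors are known to act in activity-driven transcription. Both strands were searched, and neither motif contains the other. Capitals mark the motif, and each stretch is written 5′ to 3′ on the gene's strand. The first 5 genes were higher at 7.5 h, and Dusp1 was lower.
Tpbg (chr9:85842227-85842285, plus strand, motif 127 bases before the start): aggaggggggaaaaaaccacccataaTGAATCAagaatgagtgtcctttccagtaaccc
Srxn1 (chr2:152105453-152105511, plus strand, motif 45 bases before the start): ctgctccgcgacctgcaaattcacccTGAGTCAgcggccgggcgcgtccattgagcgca
Prss23 (chr7:89518318-89518376, minus strand, motif 146 bases before the start): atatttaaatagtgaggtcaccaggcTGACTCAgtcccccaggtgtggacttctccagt
Fstl4 (chr11:52764603-52764662, plus strand, motif 77 bases before the start): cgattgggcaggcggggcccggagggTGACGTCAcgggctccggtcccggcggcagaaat
Scg2 (chr1:79440061-79440120, minus strand, motif 68 bases before the start): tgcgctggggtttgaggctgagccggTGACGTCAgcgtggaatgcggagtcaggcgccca
Dusp1 (chr17:26508582-26508641, minus strand, motif 143 bases before the start): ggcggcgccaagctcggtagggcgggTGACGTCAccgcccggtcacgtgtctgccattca

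Of the 54 genes that were higher at 7.5 h, 44 had a RefSeq promoter. TGANTCA was held by 8 of these 44 genes (18.2%), against 6.01% of the 10593 genes with a promoter among all genes tested. These 8 were Cd68, Htr2b, Pacsin2, Prss23, Srxn1, Syt6, Tpbg and Trim9. In Htr2b, Tpbg and Trim9 the match nearest the start reads TGAATCA, and in the others TGACTCA or TGAGTCA. The counts, also that of all genes, take in every middle base. Of the 14 lower genes 12 had a promoter, and none of these held it. The CRE was in 2 of the 44 genes (4.55%), in 1 of the 12, and in 3.55% of all genes with a promoter. An EGR site (GCGTGGGCG), E-box (CACGTG), CArG box, MEF2 site and heat shock element were also searched. The EGR site, CArG box and heat shock element were in 0 of the 44 and 0 of the 12, against 145, 170 and 65 of the 10593. The E-box was in 4 of the 44 and 2 of the 12, against 1216 of the 10593. The MEF2 site was in 1 of the 44 and 0 of the 12, against 55 of the 10593. A gene counted if any of its promoters held the motif, so genes with more promoters had more chances to match. Prss23, for instance, had 7 promoters and Srxn1 had 1. A motif match is a description of the letters and not a bound site.

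Between 7.5 h and 1 h of light, 54 genes were higher and 14 were lower in SST neurons (limma with Benjamini-Hochberg adjustment at 5%, on log2(signal + 1)). They made up 0.38% and 0.0985% of the 14206 genes tested. The genes with the largest rises encode the protease inhibitor Timp1, the phospholipase Pla2g5, the membrane proteins Fndc9 and Tpbg, and the synaptic protein Nptx2. The genes with the largest falls were mostly immediate early transcription factors. In all 68 genes the 3 libraries at 7.5 h lay entirely on one side of the 3 libraries at 1 h. Such a separation was found upward in 5.68% and downward in 6.29% of all genes tested, and the 68 were chosen on the same libraries. The rises ran from 0.59 to 6.98 on the log2 scale with a median of 1.29, and the falls ran from -2.78 to -0.68 with a median of -1.31. The rise was over 2-fold in 39 of the 54 genes and the fall in 10 of the 14. The median of all genes tested was -0.01.

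Libraries with the same replicate number deviated together from their group means, and a fit with the number as a block called far more genes: 1328 higher (9.35% of the genes tested) and 1012 lower (7.12%). All 68 genes called without the block were also called with it over the 13 SST libraries, in the same direction. With the block in the 6 libraries alone, 63 of the 68 were still called, and Dusp1, Fndc9, Nefm, Npas4 and Scg2 were not. Below, "higher", "lower", "rose", "fell", "changed" and "passed" refer to the fit without the block unless the block is named. That fit counts the shared deviations as spread, so a gene that missed in it was not shown to be unchanged. The signal is not divided by gene length, so levels are compared only within a gene.

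**Figure D1:**
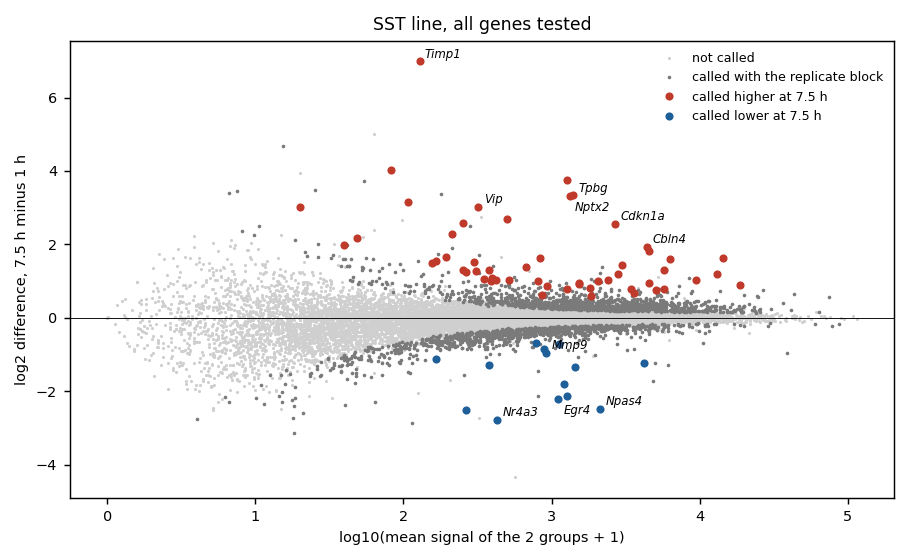
Mean signal over the 6 SST libraries (x axis, log10 scale) against the difference between 7.5 h and 1 h of light (y axis, log2(signal + 1), 7.5 h minus 1 h) for the 14206 genes tested. The 54 higher and 14 lower genes are coloured, and the rises reach 6.98 while the largest fall is -2.78.

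The depth was estimated from the step of which most low values were whole multiples (92.8% to 96.4% of them over all libraries). This rough estimate was 12.2 to 23.4 M reads in the listed genes at 7.5 h and 18.1 to 29.9 M at 1 h. One read was then worth a signal of 1.02 to 1.89 at 7.5 h and 0.777 to 1.19 at 1 h, and the part of this difference in the results was not tested. Replicates of a group correlated at 0.963 to 0.975 (Pearson's r across genes, which are not independent replicates). The label of the line held in its defining gene. Sst averaged 81878 ± 9813 at 7.5 h and 92787 ± 7708 at 1 h in the SST line (SD, n = 3 each), and in the PV line it averaged 1135 ± 54.3 at 7.5 h and 835 ± 184 at 1 h. All 13 SST neuron markers listed were measured, 2 of them rose (with the block 4 were higher and 2 lower), and their summed signal was 224199 to 245241 at 7.5 h and 208634 to 224415 at 1 h. Markers of other cells had signal in both groups, and whether it came from other cells or from tagged cells was not tested. The summed signal of 15 excitatory neuron markers was 23391 to 40552 at 7.5 h and 28332 to 43340 at 1 h. None of the 15 changed (with the block 1 was lower). Astrocyte markers summed to 18238 to 24598 at 7.5 h and 18455 to 49250 at 1 h, where replicate 3 was highest, and none of the 12 changed (with the block 1 was higher). No gene in the lists of oligodendrocyte (12), oligodendrocyte precursor (7), endothelial (11 tested), PV (10) or inhibitory neuron (12) markers changed. With the block 2 inhibitory neuron markers were higher and 6 lower, 1 oligodendrocyte marker was lower, and the other lists named in the previous sentence held no call.

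The immediate early transcription factors were the list with the most falls. Of its 24 genes, 5 fell and none rose, and the median difference was -0.88; with the block 14 were lower and 2 were higher. Npas4, an activity-dependent factor that controls inhibitory synapses, had a signal of 392, 873 and 759 in the 3 libraries at 7.5 h, against 3915, 3397 and 3466 at 1 h. Every 7.5 h library lay far below every 1 h library, and the 2 dark libraries were lower still at 66.5 and 53.2. The fall was -2.49 ± 0.37 on the log2 scale (SE, limma adjusted p = 0.00854), and it no longer passed without replicate 2 at 1 h (adjusted p = 0.0538) or with the block in the 6 libraries alone (adjusted p = 0.0923).

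Nr4a3, an orphan nuclear receptor, had 95.1, 149.7 and 83.6 at 7.5 h, against 758, 892 and 580.0 at 1 h. This was the largest fall of all 14, at -2.78 ± 0.30 (SE, limma adjusted p = 7.73e-04). Its relative Nr4a2 had 645, 542 and 439 at 7.5 h, against 1870.2, 2147 and 1641 at 1 h, a difference of -1.81 (limma adjusted p = 0.00508). Both receptor genes had groups that did not overlap. Egr4, a zinc finger factor, had 277, 475 and 447 at 7.5 h, against 1824, 1927 and 1718 at 1 h, a fall of -2.22 ± 0.25 (SE, limma adjusted p = 9.42e-04). Junb, a partner of FOS proteins in AP-1, had 267, 697 and 524 at 7.5 h, against 1863, 2329 and 1890.2 at 1 h, a fall of -2.13 (limma adjusted p = 0.0121). Junb no longer passed without replicate 2 at 1 h (adjusted p = 0.0802), while Egr4, Nr4a2 and Nr4a3 passed with any 1 of the 6 libraries left out.

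Not every early factor passed the threshold, although 21 of the 24 had a negative difference and 3 a positive one. Fos had 1398, 2163 and 3408 at 7.5 h, against 8795, 6334 and 6821 at 1 h. Its groups did not overlap, but the difference of -1.73 missed the threshold (limma adjusted p = 0.0509, and 0.0151 with the block). Egr1 had 19665, 32642 and 27462 at 7.5 h, against 52000.0, 58178 and 42450.0 at 1 h, a difference of -0.95 (limma adjusted p = 0.147, and 0.0407 with the block). Fosb had 3884, 4495 and 5518 at 7.5 h, against 13143, 5548 and 4582 at 1 h, and Egr3 had 7658, 8577 and 8627, against 12991, 5579 and 5022. In both genes replicate 1 at 1 h was highest and the groups overlapped, with limma adjusted p of 0.682 for Fosb and 0.971 for Egr3. Fosl1, another FOS family member, ran the other way with 39.3, 87.5 and 172 at 7.5 h, against 11.2, 1.98 and 6.29 at 1 h, a difference of 3.73 (limma adjusted p = 0.0653, and 8.82e-04 with the block). The 2 early factors that were higher with the block were Fosl1 and Klf10, a factor induced by TGF-beta.

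Among 24 early genes that encode effectors rather than transcription factors, 1 rose and none fell, with a median of -0.22. The riser was Homer1, a postsynaptic scaffold whose short form is induced by activity. Homer1 had 9109.5, 7643 and 7754 at 7.5 h, against 4225, 2412 and 3510.1 at 1 h, a 2.47-fold difference (log2 1.30 ± 0.20, SE, limma adjusted p = 0.0118). The groups were far apart, but the call was lost without replicate 1 at 7.5 h (adjusted p = 0.0622) or replicate 2 at 1 h (adjusted p = 0.0520). Arc, which encodes a regulator of glutamate receptor removal, had 4535, 8651 and 9949 at 7.5 h, against 9527, 8673 and 5703 at 1 h, and the groups overlapped fully. With the block 4 of these 24 genes were higher and 8 were lower.

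Among 18 genes of MAP kinase signalling and its feedback, 1 rose and 1 fell, and with the block 5 were higher and 2 lower. Dusp1, a phosphatase that switches MAP kinases off and carries the CRE shown above, had 1606, 3169 and 2863 at 7.5 h, against 5806, 6846 and 4856 at 1 h. It fell by 1.24 on the log2 scale (limma adjusted p = 0.0438). Etv5, an ETS factor induced by MAP kinase signalling, had 2402, 3264 and 2666 at 7.5 h, against 1267, 1340.2 and 1503 at 1 h. It rose 2.01-fold (limma adjusted p = 0.0126). Neither gene's groups overlapped, and both calls were lost in several of the fits that left out 1 library, up to adjusted p = 0.219 for Dusp1 and 0.0703 for Etv5. Dusp1 also missed with the block in the 6 libraries alone (adjusted p = 0.152). None of 20 genes of the cAMP and CREB pathway passed, and 8 of them were higher with the block, none lower.

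Bcl2l11, which encodes the cell death protein BIM, had 949, 718 and 737 at 7.5 h, against 2813, 1765 and 1683 at 1 h, a fall of -1.35 (limma adjusted p = 0.0109). Frat2, which binds the kinase GSK3, had 268, 144 and 268 at 7.5 h, against 566, 532 and 494 at 1 h, a fall of -1.28 (limma adjusted p = 0.0442). In both genes the 3 libraries at 7.5 h were the lower ones. The call on Bcl2l11 was lost without replicate 2 (adjusted p = 0.0604) or 3 (adjusted p = 0.0538) at 7.5 h, and that on Frat2 with any library left out (adjusted p up to 0.185).

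The 14 lower genes had different courses from darkness on. In 9 of them (Npas4, Nr4a3, Junb, Egr4, Nr4a2, Dusp1, Ciart, Bcl2l11 and Frat2) the mean at 1 h was over 1.5 times that in darkness, with ratios of 60.0 in Npas4, 41.6 in Egr4, 21.9 in Nr4a3 and 21.8 in Junb. By 3 h these 9 genes stood at 0.215 to 0.645 of their 1 h mean. The other 5 had no such rise: Mmp9, Sytl2, Tmtc4, Cdkl1 and Pik3ip1 were at 0.746 to 0.905 of the 1 h mean at 3 h, and at 7.5 h they were at 0.481 to 0.582 of the dark mean. The 1 h libraries enter both the comparison and these ratios, so the ratios are a description with no test.

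Mmp9, a secreted protease that cuts extracellular matrix, had 576, 636 and 664 at 7.5 h, against 1166, 1228 and 1262 at 1 h. The 2 dark libraries had 1118 and 1299 and the 3 libraries at 3 h had 1099, 1103 and 1107, so all 8 libraries of the earlier times lay above all 3 at 7.5 h. The fall was -0.96 ± 0.12 (SE, limma adjusted p = 0.0027), and it passed with any 1 of the 6 libraries left out but not in the 6 libraries alone (adjusted p = 0.0598). Sytl2, a synaptotagmin-like protein that links RAB27 to vesicles, had 609, 733 and 549 at 7.5 h, against 1116, 1088 and 1202 at 1 h (log2 difference -0.86, limma adjusted p = 0.015). Tmtc4, an endoplasmic reticulum protein that adds mannose to cadherins, had 901, 899.8 and 759 at 7.5 h, against 1401, 1328 and 1435 at 1 h (-0.71, limma adjusted p = 0.0263). Pik3ip1, an inhibitor of PI3 kinase, had 663, 587 and 544 at 7.5 h, against 1026, 894 and 958 at 1 h (-0.68, limma adjusted p = 0.0442). Cdkl1, a CDK-like kinase, had 94.1, 123 and 91.5 at 7.5 h, against 238, 245 and 195 at 1 h (-1.13, limma adjusted p = 0.0339). The groups were separate in all 4, but with 1 library left out adjusted p reached 0.0878 for Sytl2, 0.127 for Tmtc4, 0.193 for Pik3ip1 and 0.169 for Cdkl1.

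**Figure D2:**
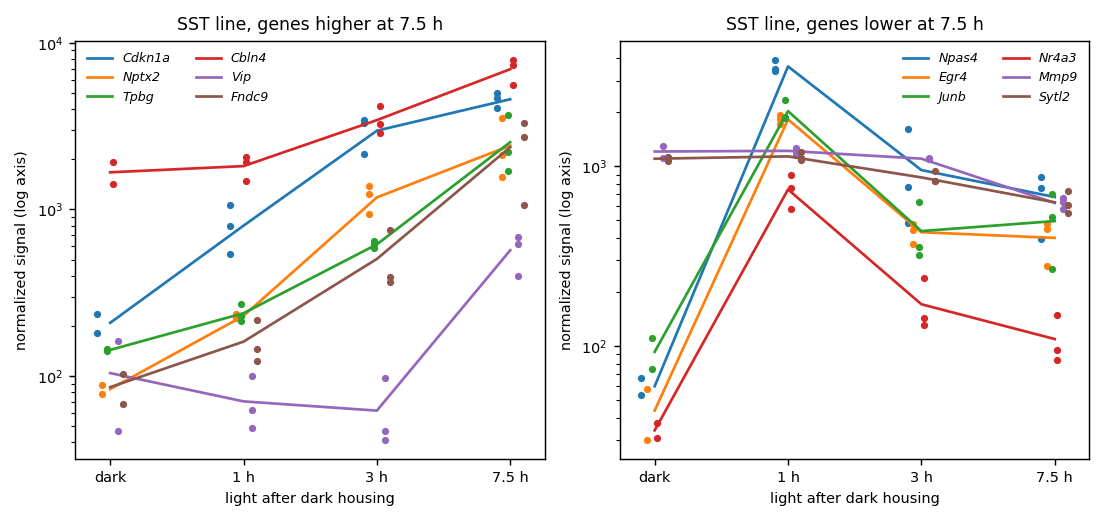
Signal (y axis, log scale) of 12 genes in the SST line in darkness and after 1, 3 and 7.5 h of light (x axis). Points are libraries and lines join the means. Npas4, Egr4, Junb and Nr4a3 peak at 1 h, Mmp9 and Sytl2 fall below the dark level by 7.5 h, and Cdkn1a, Nptx2, Tpbg, Cbln4, Vip and Fndc9 are highest at 7.5 h.

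Of the 54 higher genes 52 had their highest mean at 7.5 h, and the other two, the kinase gene Hunk and the RING finger gene Lonrf3, had it at 3 h. The mean at 3 h was above that at 1 h in 52 of the 54. At 7.5 h, 51 were over 1.5 times their dark mean, whereas at 1 h 6 were. The genes were chosen for being higher at 7.5 h than at 1 h, which in large part fixes these counts, and the ratio of the 3 h to the 1 h mean ran from 0.789 to 11.3.

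**Figure D3:**
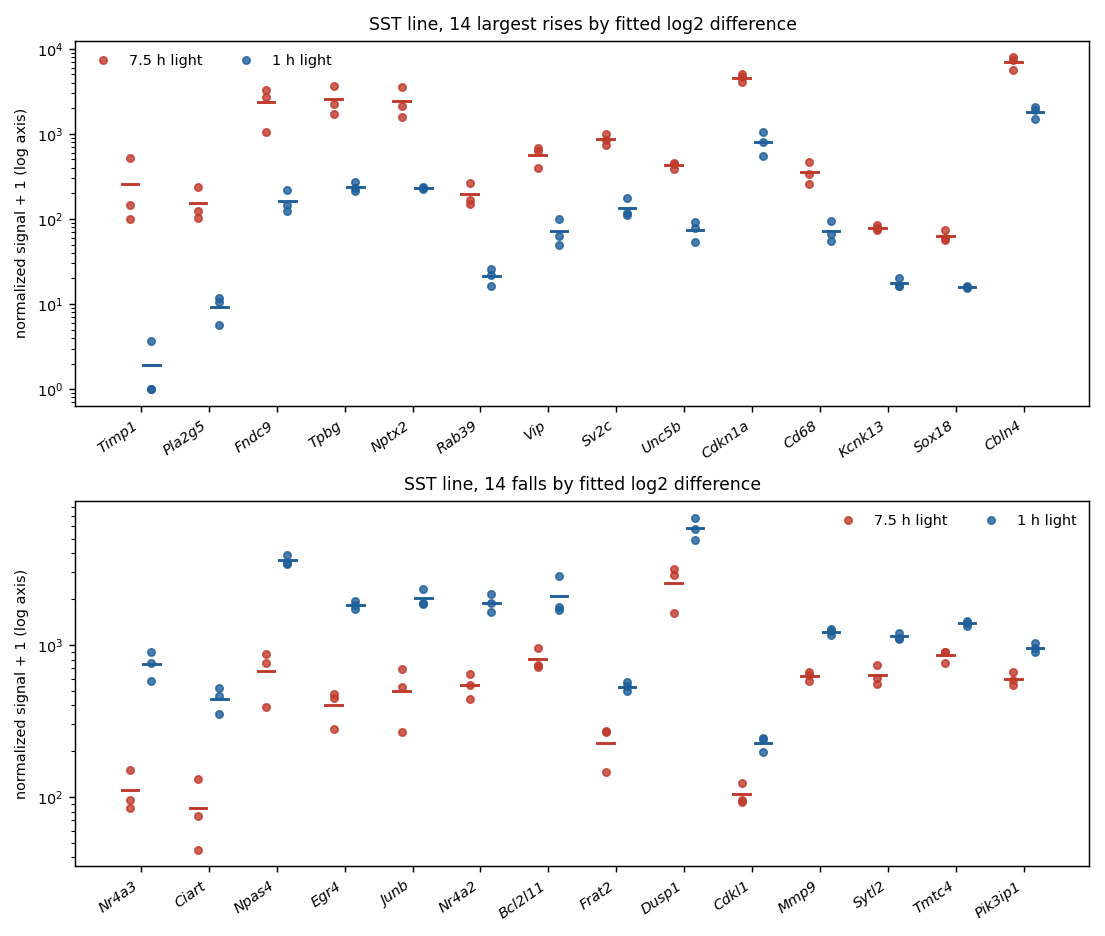
Signal + 1 (y axis, log scale) in each SST library for the 14 largest rises and 14 largest falls among genes that passed, with 7.5 h left of 1 h; points are libraries and bars are group means. In all 28 genes the 3 points of one time lie on one side of the 3 points of the other.

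Without the block, secreted growth and synaptic factors held the most rises of any list; with it, heat shock and unfolded protein response genes did, with 22. Of 29 genes 6 rose and none fell, with a median difference of 0.41; with the block 14 were higher and 1, Bmp2, was lower. Nptx2, a secreted pentraxin that gathers AMPA receptors at synapses, had 1571, 2119.7 and 3561 at 7.5 h, against 236, 230.0 and 224 at 1 h. The lowest library at 7.5 h lay far above the highest at 1 h, a 9.88-fold difference (log2 3.30 ± 0.25, SE, limma adjusted p = 6.39e-05). Cbln4, a synapse organiser that SST neurons release, had 7357, 5575 and 7918 at 7.5 h, against 2060.5, 1486 and 1918 at 1 h, a 3.81-fold rise (limma adjusted p = 7.64e-04). Inhbb, a subunit of activin B, had 315, 210.3 and 213 at 7.5 h, against 95.5, 74.6 and 78.6 at 1 h, a 2.91-fold rise (limma adjusted p = 0.0057). These 3 calls stood with any 1 library left out, and Inhbb missed in the 6 libraries alone (adjusted p = 0.0562).

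The other 3 risers of this list were Vgf, Fstl4 and Scg2. Vgf, a neurotrophin-induced peptide precursor, had 17706, 29983 and 17689 at 7.5 h, against 7147, 8741 and 5114 at 1 h (3.09-fold, limma adjusted p = 0.0266). Fstl4, a follistatin-like protein, had 255, 212 and 211 at 7.5 h, against 68.3, 108 and 69.1 at 1 h (2.79-fold, limma adjusted p = 0.032). Scg2, a granin of dense-core vesicles, had 23283, 21672 and 28320.0 at 7.5 h, against 15168, 13109 and 11171 at 1 h (1.86-fold, limma adjusted p = 0.0286). Fstl4 and Scg2 are the risers whose promoters hold the CRE. The call on Vgf was lost with any 1 library left out (adjusted p up to 0.133), and those on Fstl4 and Scg2 in 5 of the 6 such fits (adjusted p up to 0.149 and 0.143). Scg2 also missed with the block in the 6 libraries alone (adjusted p = 0.107).

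Members of the list that missed the threshold included well-known activity genes. Bdnf, a neurotrophin, had 391, 398 and 571 at 7.5 h, against 193, 142 and 248 at 1 h, with groups that did not overlap (log2 1.23, limma adjusted p = 0.0626, and 6.02e-06 with the block). Inhba, a subunit of activin A, had 365, 278 and 333 at 7.5 h, against 41.9, 24.5 and 27.4 at 1 h, also without overlap (log2 3.37, limma adjusted p = 0.0747, and 0.00147 with the block). Igf1, the growth factor the series names in its title, had 4117, 2839.5 and 3062 at 7.5 h, against 2570.0, 2057 and 2438 at 1 h. Every 7.5 h library was above every 1 h library by a small margin, a 1.41-fold difference (log2 0.49 ± 0.17, SE, limma adjusted p = 0.346, and 3.55e-05 with the block). No gene of the 19 tested in IGF and insulin signalling passed, and with the block 5 were higher and 2 lower.

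Among 17 neuropeptides and related genes 2 rose, Vip and Crhbp, and none fell; with the block 5 were higher and 2 lower. Vip, the peptide that defines another class of interneuron, had 400.0, 621 and 687 at 7.5 h, against 48.9, 62.7 and 100.05 at 1 h. It was 46.5 and 162 in darkness and 41.6, 46.6 and 98.1 at 3 h, so it stood apart at 7.5 h only among these 4 times, and in standard housing it averaged 529. The difference was 8.11-fold (log2 3.02 ± 0.45, SE, limma adjusted p = 0.00854), and it no longer passed without replicate 2 at 7.5 h (adjusted p = 0.0535) or at 1 h (adjusted p = 0.0566). In the VIP line itself the signal was 94204 ± 24545 at 7.5 h and 71849 ± 16374 at 1 h. Of 10 VIP neuron markers Vip alone rose (with the block 3 were higher), the median was 0.41, and their summed signal was 15842 to 16603 at 7.5 h, against 13652 to 14823 at 1 h and 13934 to 14936 in darkness. The part of VIP neuron RNA in this rise was not tested.

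Crhbp, which binds corticotropin-releasing hormone and marks SST neurons, had 13402, 16382 and 25202 at 7.5 h, against 7129.9, 7331 and 8827 at 1 h (2.29-fold, limma adjusted p = 0.0442). Its call was lost in 5 of the 6 fits that left out 1 library and with trimmed-mean scaling (adjusted p = 0.0708). Sst itself had 78602, 92909 and 74122 at 7.5 h, against 96198, 98200.0 and 83962 at 1 h. The groups overlapped, and the difference was -0.18 ± 0.15 (SE, limma adjusted p = 0.86, and 0.0314 with the block). No gene of 37 receptors for peptides and neuromodulators passed, and with the block 4 were higher and 5 lower.

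In the list of 43 axon guidance and adhesion genes 3 rose and none fell; with the block 7 were higher and 5 lower. Tpbg, a leucine-rich repeat membrane protein of neuronal processes, had 1707, 2216 and 3679 at 7.5 h, against 214, 273 and 229 at 1 h. It was 146 and 141 in darkness and 644, 620.3 and 589 at 3 h, so each later time was above the one before it without overlap. The difference between 7.5 h and 1 h was 10.1-fold and had the smallest adjusted p of all genes (log2 3.34 ± 0.23, SE, limma adjusted p = 4.24e-05). Unc5b, a netrin receptor, had 389.8, 451 and 445 at 7.5 h, against 90.1, 76.4 and 52.4 at 1 h (5.94-fold, limma adjusted p = 6.77e-04). Pcdh8, an activity-induced protocadherin, had 2628, 3304 and 3712 at 7.5 h, against 1352, 1625 and 1718 at 1 h (2.04-fold, limma adjusted p = 0.024). Both had separate groups; Pcdh8 lost its call in 5 of the 6 fits that left out 1 library (adjusted p up to 0.116). Pcdhgc5 also rose (log2 1.43), but it shares exons with the other gamma protocadherins, and its reads may not be its own.

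The next 6 risers belong to none of the lists. Fndc9, a membrane protein with a fibronectin domain, had 2738, 1061 and 3299 at 7.5 h, against 216, 145 and 123 at 1 h (13.5-fold, log2 3.75 ± 0.43, SE, limma adjusted p = 9.42e-04). Sv2c, a synaptic vesicle protein, had 1002, 731 and 838 at 7.5 h, against 176, 109 and 118 at 1 h (6.44-fold, limma adjusted p = 6.77e-04). Rab39, a small GTPase, had 167, 149.7 and 264 at 7.5 h, against 24.9, 20.9 and 15.5 at 1 h (8.95-fold, limma adjusted p = 6.77e-04). In all 3 the lowest 7.5 h library was several times the highest 1 h library, and each call stood with any 1 library left out. Fndc9 missed with the block in the 6 libraries alone (adjusted p = 0.0659). Nefm, the medium neurofilament, had 5987, 6240.1 and 9232 at 7.5 h, against 2465, 1911 and 1662 at 1 h (3.53-fold, limma adjusted p = 9.42e-04, and 0.11 with the block in the 6 libraries alone). Trim9, a ubiquitin ligase in netrin signalling, had 12323, 13031 and 12991 at 7.5 h, against 6825, 6461 and 5466 at 1 h (2.05-fold, limma adjusted p = 0.00183). Kcnk13, a 2-pore potassium channel, had 73.7, 83.3 and 77.3 at 7.5 h, against 15.5, 15.5 and 19.1 at 1 h (4.49-fold, limma adjusted p = 0.0375), a call lost with any library left out.

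Of 15 tested growth arrest genes 1 rose and none fell, and with the block 1 was higher and 1 lower. The riser was Cdkn1a, which encodes the cell cycle inhibitor p21. It had 4054, 5018 and 4691 at 7.5 h, against 1064, 791 and 544 at 1 h, and 235 and 182 in darkness. At 3 h it had 3443, 3316 and 2152, between the 1 h and 7.5 h libraries. The difference between 7.5 h and 1 h was 5.92-fold (log2 2.57 ± 0.25, SE, limma adjusted p = 6.77e-04). Srxn1, which repairs oxidised peroxiredoxins, had 8236, 7818 and 12274 at 7.5 h, against 3722, 2598 and 2944 at 1 h (3.03-fold, limma adjusted p = 0.00135). Pfkfb3, an enzyme that drives glycolysis, had 1133, 1149.8 and 1507 at 7.5 h, against 432, 384 and 401 at 1 h (3.09-fold, limma adjusted p = 6.77e-04). The 3 genes had separate groups.

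Timp1, an inhibitor of matrix metalloproteases, had 144, 98.5 and 519 at 7.5 h, against 0, 2.73 and 0 at 1 h. It was 2.42 and 5.91 in darkness and 16.8, 6.51 and 7.44 at 3 h, so it was near the bottom of the scale at all times but the last. The difference was 6.98 ± 0.75 on the log2(signal + 1) scale (SE, limma adjusted p = 7.73e-04), and it ran from 6.28 to 7.61 with 1 library left out; no fold is given because 2 of the 1 h libraries are listed at 0. Pla2g5, a secreted phospholipase, had 122, 100.4 and 238 at 7.5 h, against 4.66, 10.9 and 9.53 at 1 h (log2 4.01, limma adjusted p = 0.00165). Of 33 tested genes of the matrix, its proteases and their inhibitors, Timp1 rose and Mmp9 fell, and with the block 3 were higher and 6 lower.

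A pair of risers are known from other cell types. Cd68, a lysosomal protein of microglia and macrophages, had 254, 341 and 464 at 7.5 h, against 66.0, 92.7 and 54.8 at 1 h (4.87-fold, limma adjusted p = 0.00238). It was the only one of 12 microglia markers that changed, the median of the 12 was -0.19, and their summed signal was 901 to 1061 at 7.5 h, against 673 to 859 at 1 h. Sox18, a factor of blood vessel cells, had 55.2, 73.9 and 58.4 at 7.5 h, against 14.8, 14.5 and 15.5 at 1 h (3.96-fold, limma adjusted p = 0.00508). Its mean was 43.2 in darkness and 50.8 at 3 h, so the 1 h libraries were the low ones, and the call was lost in the 6 libraries alone (adjusted p = 0.0765). The 11 tested endothelial markers summed to 503 to 579 at 7.5 h, against 430 to 573 at 1 h. The part of other cells' RNA in these rises was not tested.

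**Figure D4:**
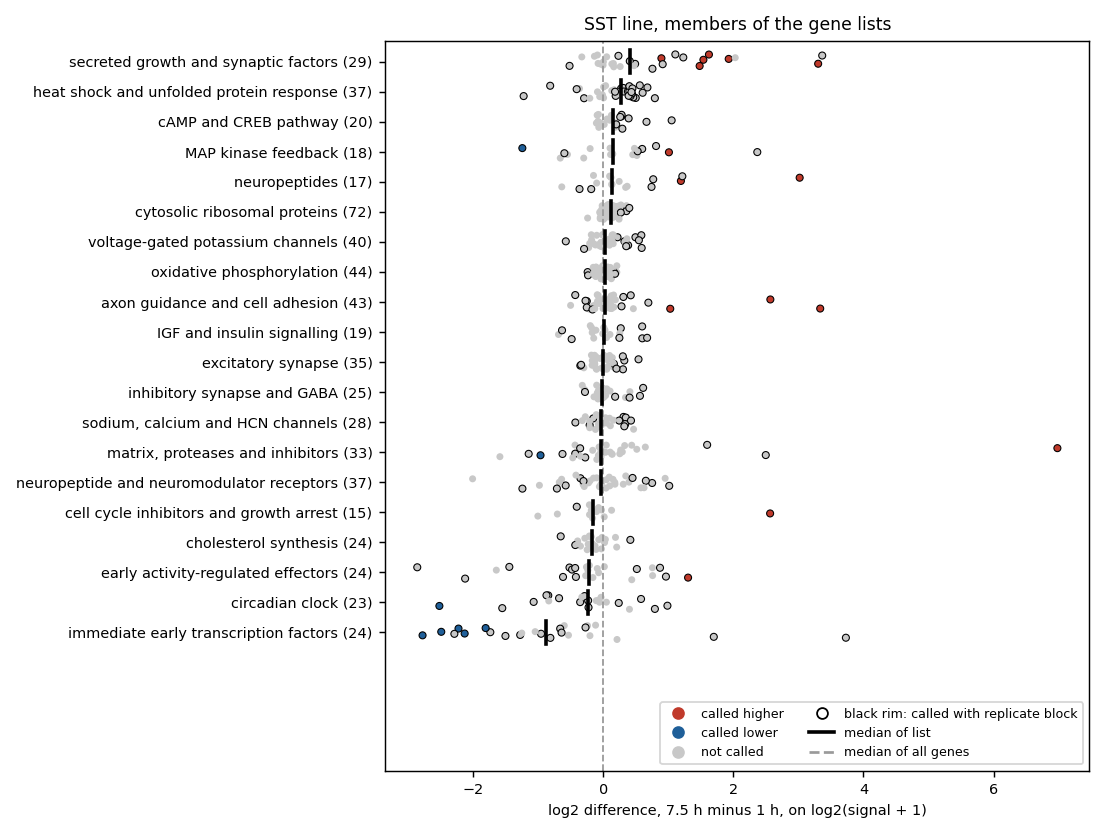
Difference between 7.5 h and 1 h of light (x axis, log2(signal + 1), 7.5 h minus 1 h) of each tested member of 20 gene lists (y axis); black bars are list medians and the dashed line is the median of all genes, -0.01. Red and blue points are members called higher and lower, and black rims mark those called with the replicate block; immediate early factors have a median of -0.88 and secreted factors one of 0.41.

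Several lists held few or no calls without the block and many with it. Of 37 tested heat shock and unfolded protein response genes none passed, with a median of 0.28, and with the block 22 were higher and 4 were lower. Hspa5, the main chaperone of the endoplasmic reticulum, had 9732, 8579 and 14206 at 7.5 h, against 6996, 5432 and 7588 at 1 h (log2 0.68, limma adjusted p = 0.187, and 1.91e-05 with the block). Among the 4 lower with the block were the cytosolic heat shock genes Dnajb1 (log2 -1.22) and Hspa1a (log2 -0.81), the second of which has a near-identical copy and is uncertain. The members called with the block thus included chaperones of different compartments in opposite directions.

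Of 23 circadian clock genes 1 passed, Ciart, a repressor of the clock's activators. Ciart had 44.0, 131 and 74.2 at 7.5 h, against 349.5, 519 and 457 at 1 h, a fall of -2.52 ± 0.35 (SE, limma adjusted p = 0.00508). It passed with any 1 of the 6 libraries left out. With the block 10 clock genes were lower, among them Dbp (log2 -1.55), Nr1d1 (-0.87) and Per1 (-0.84), and 4 were higher, Cry1 (0.99), Npas2 (0.80), Per2 (0.58) and Clock. Per1, a repressor of the clock, had 2552, 3502 and 1754 at 7.5 h, against 4864, 5602 and 3329 at 1 h, so its groups overlapped although each 7.5 h library was below the 1 h library of the same number. Collection hour, which the labels do not give, could not be set beside these values.

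Lists of synapse, channel and housekeeping genes held no call without the block. These were 35 excitatory synapse genes (block 6 higher and 2 lower), 25 inhibitory synapse genes (4 and 1), 40 potassium channel genes (8 and 2), and 28 sodium, calcium and HCN channel genes (6 and 3). In cholesterol synthesis 24 genes were tested (block 1 higher and 2 lower), in oxidative phosphorylation 44 (2 and 2), and among ribosomal proteins of the cytosol 72 (4 and 0). Gad1, which makes GABA, had 25590.0, 21347 and 24698 at 7.5 h, against 19516, 14136 and 13630.0 at 1 h (log2 0.61, limma adjusted p = 0.243, and 5.42e-05 with the block).

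The same comparison in separate libraries of 3 other lines, with 3 libraries per time, showed how far the 68 genes moved elsewhere. PV-Cre and VIP-Cre mark other interneurons, and Emx-Cre marks excitatory neurons and is known to act in cortical glia too. Of the 54 risers, 52 had a positive difference in the PV line, 48 in the VIP line and 50 in the Emx line, where 51.5%, 49.6% and 45.1% of all genes were positive. Their median log2 difference was 1.29 in the SST line, 0.76 in the PV line, 0.43 in the VIP line and 0.61 in the Emx line; the genes were chosen in the SST line, which makes its own median large. In the PV line 4 of the 54 also passed (Car7, Fndc9, Nptx2 and Tuba8), where 0.0564% of all genes were higher. In the VIP line 2 passed (Srxn1 and Tuba8), where 0.0352% were higher. In the Emx line 17 passed, including Cbln4, Cdkn1a, Fndc9, Nptx2, Scg2, Timp1, Tpbg and Vip, where 1.14% were higher.

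Of the 14 genes that fell, 14 had a negative difference in the PV line, 13 in the VIP line and 13 in the Emx line. One, Nr4a3, passed in the PV line, where 0.00705% of genes were lower. In the VIP line 4 passed (Egr4, Npas4, Nr4a3 and Sytl2), where 0.0987% were lower, and in the Emx line 8 passed (Ciart, Dusp1, Egr4, Junb, Npas4, Nr4a2, Nr4a3 and Sytl2), where 0.845% were lower. Nr4a3 thus fell in all 4 lines: its means at 7.5 h and 1 h were 109 and 743 in the SST line, 95.9 and 471 in the PV line, 227 and 2116 in the VIP line, and 454 and 1509 in the Emx line. Npas4, with a log2 difference of -2.49 in the SST line, had 406 ± 268 at 7.5 h and 9130.1 ± 3778 at 1 h in the VIP line (SD, n = 3 each), a log2 difference of -4.71; the difference between these changes, 2.22 ± 0.76 (SE), did not pass (limma adjusted p = 0.557).

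Whether a change differed between lines was tested with an interaction term over all genes. The SST change differed from that of the PV line in 2 genes (0.0141% of 14214), from that of the VIP line in 11 (0.0774%) and from that of the Emx line in 22 (0.155%). It was the more positive one in 2 of the 2 genes against PV, 8 of the 11 against VIP and 15 of the 22 against Emx; 1 of these 22, Crct1, is listed at 0 in all 6 SST libraries. Tpbg differed from all 3 lines. It averaged 2534 ± 1024 at 7.5 h and 239 ± 30.4 at 1 h in the SST line, 415 ± 76.7 and 186 ± 19.1 in the PV line, 2088 ± 358 and 2279.5 ± 524 in the VIP line, and 1559.8 ± 23.2 and 714 ± 104 in the Emx line (SD, n = 3 each). At 1 h the SST and PV lines were low and the VIP line was already near the level that the SST line had at 7.5 h. The SST change was larger than that of the PV line by 2.20 ± 0.31 (log2, SE, limma adjusted p = 4.08e-05), than that of the VIP line by 3.45 ± 0.31 (adjusted p = 1.81e-11) and than that of the Emx line by 2.20 ± 0.31 (adjusted p = 1.57e-05).

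Unc5b averaged 429 ± 33.7 at 7.5 h and 73.0 ± 19.1 at 1 h in the SST line, 605 ± 135 and 479 ± 55.5 in the VIP line, and 475 ± 77.8 and 644 ± 154 in the Emx line (SD, n = 3 each). Among these 6 groups the SST libraries at 1 h were the low ones. In the PV line, which is not among them, Unc5b also had a positive difference, and the SST change did not pass as different from it. The SST change was larger by 2.25 than in the VIP line (limma adjusted p = 0.00499) and by 2.99 than in the Emx line (adjusted p = 1.57e-05). Srxn1 rose 3.03-fold in the SST line and had 6011 ± 851 at 7.5 h and 4375 ± 538 at 1 h in the PV line, a difference between the changes of 1.14 (limma adjusted p = 0.00889) that passed in 4 of the 6 fits that left out 1 SST library; against the Emx line it was 1.21 (adjusted p = 6.44e-04). Nptx2 had 699 ± 152 at 7.5 h and 483 ± 116 at 1 h in the VIP line, where the SST change was larger by 2.77 (limma adjusted p = 1.86e-04). Pcdh8 had 274 ± 57.2 at 7.5 h and 515 ± 112 at 1 h in the Emx line, the opposite direction to the SST line (difference of changes 1.94, limma adjusted p = 1.57e-05). Fosb had 4632 ± 825 at 7.5 h and 7758 ± 4689 at 1 h in the SST line, and 911 ± 199 at 7.5 h and 8416 ± 3005 at 1 h in the VIP line, a difference of changes of 2.58 (limma adjusted p = 0.019) that passed in 3 of the 6 fits that left out 1 SST library.

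**Figure D5:**
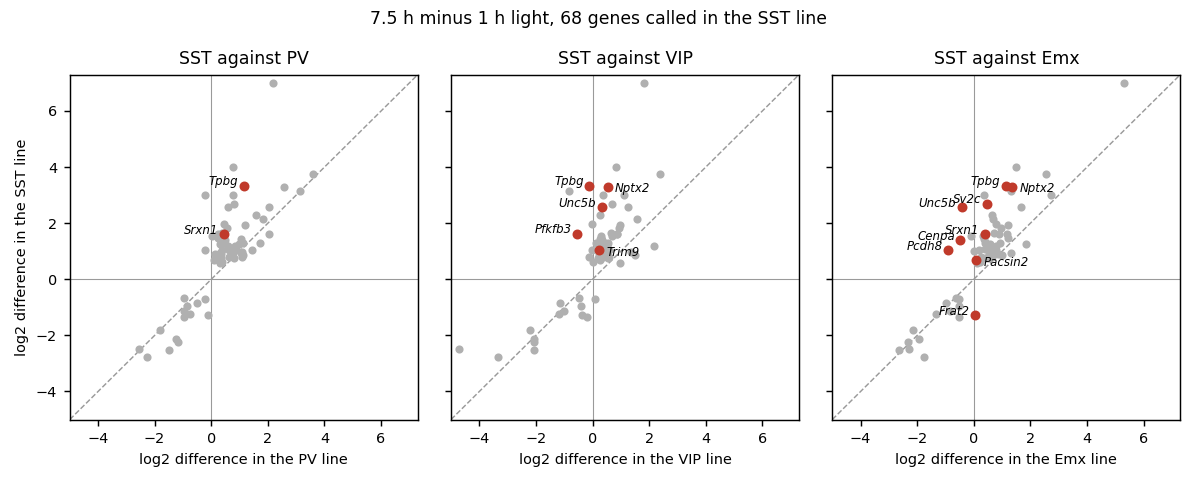
Difference between 7.5 h and 1 h of light (log2(signal + 1), 7.5 h minus 1 h) of the 68 SST genes. The y axis is the SST line, and the x axis is the PV, VIP or Emx line (1 panel each). Each point is a gene, the dashed line marks an equal change, and red points differ between the lines by the interaction test. Tpbg is red in all 3 panels, with a log2 difference of 3.34 in SST, 1.14 in PV, -0.12 in VIP and 1.14 in Emx.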

How the data were processed

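The deposited table holds 1 normalised signal per gene and library; the labels do not state its unit, and the authors deposited it as values whose low end moves in steps close to 1 read. It was used as a signal, never as counts. The submitters' processing notes list the tools Cuffdiff 2.2.1 and Cuffnorm, the aligners BWA, Bowtie2 2.1.0.0 and TopHat2 2.0.13, and the mouse build mm9, with no settings. The 25 columns of group means were not used, and 2 SST columns (darkness and standard housing, replicate 2) are empty. Of 14284 genes, 23 whose names had become dates were dropped. In the SST line 10 genes (46 in any line) were set aside. Each had a library at 0 while the other libraries of the line had a median of at least 50 estimated reads. Such a 0 may be a failed estimate.

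Signals of the 13 SST libraries were taken to log2(signal + 1), genes that reached a signal of 1 in 3 or more libraries were kept (14206), and the 7.5 h and 1 h groups were compared with limma 3.58.1 (R 4.3.3, with statmod 1.5.0) with Benjamini-Hochberg adjustment at 5% over all genes. Fold changes are on this scale and understate the change of low genes. The comparison between lines used the same model over all lines with an interaction term; the Gad2 line, which also holds SST neurons, was not set against SST. Tables were made with Python 3.11.15, pandas 2.3.3 and numpy 2.4.6. The fit was tested on simulated data with independent noise in each library. The simulation did not include the shared deviations of libraries with the same replicate number, so it cannot show how the fit behaves with them.

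Samples were grouped by line, housing and light time in the labels. Deviations from group means correlated at 0.713, 0.475 and 0.685 between 7.5 h and 1 h libraries of the same replicate number (11549 genes). All were over the 0.1 that was required, so the numbers were taken to pair the libraries. Between different numbers the values were -0.565 to -0.0600. Centring on the group mean pushes these down, so they add no evidence of pairing. The study methods at hand state no block, and the fit without it stayed the primary one. It counts the deviations shared by libraries of one number as spread, which widens its errors. Block counts and values stand beside the lists and genes described where they change a call.

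The members and gene lists were chosen with earlier results of these data known. The text names the 14 genes that rose most and the 14 that fell most among those that passed, had separate groups and averaged at least 50 in the higher group, up to 4 per list, up to 5 per line for the interaction, plus Igf1 and Sst; other names were chosen after their values were seen. Promoters are from RefSeq GRCm38.p6, a build other than that of the files, and no coordinates of the files are given. Nothing in the labels says how replicates were separated beyond the word biological, so p-values measure the spread between these pools.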

Additional observations from a re-analysis of the deposited data

Results flagged for a closer look

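The change between 7.5 h and 1 h of light differed between the SST line and another line in 35 cases by the interaction test in limma (22 against Emx, 11 against VIP, 2 against PV). The 18 given here are the up to 5 largest per line and genes named for another reason; each value is the log2 change in the SST line minus that in the other line. No explanation was tested.

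Against the Emx line, genes that rose in SST differed by 2.99 in Unc5b, 2.23 in Sv2c, 2.20 in Tpbg, 1.95 in Nptx2, 1.94 in Pcdh8 and 1.21 in Srxn1, and the faller Frat2 differed by -1.32. Sv2c, Nptx2 and Frat2 held in 2, 1 and 2 of the 6 fits that left out 1 SST library. Genes not called in SST differed by 5.29 in Fosl1 and 2.66 in Gm13889. Fosl1 held in 4 of the 6 fits, and its signal in the Emx line was near the bottom of the scale (1.66 ± 1.46 at 7.5 h and 6.35 ± 3.80 at 1 h). Gm13889, a gene with no name, averaged 7454 ± 4468 at 7.5 h and 3044 ± 514 at 1 h in the SST line, and 462 ± 66.3 and 1367 ± 345 in the Emx line at these times (SD, n = 3 each). For Crct1 the difference of -4.47 is no result about SST: it is listed at 0 in all 6 SST libraries and was not tested there, and it averaged 27.5 ± 23.9 at 7.5 h in the Emx line and is listed at 0 at 1 h. Among the cases not described here, Cenpa, Errfi1, Syt12, Kcnj12, Sgsm1, Fam43a and Ptgs1 against Emx and Pfkfb3 and Errfi1 against VIP passed in all 6 fits that left out 1 SST library.

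Against the PV line the differences were 2.20 in Tpbg and 1.14 in Srxn1, which held in 4 of the 6 fits. Against the VIP line they were 3.45 in Tpbg, 2.77 in Nptx2, 2.58 in Fosb, 2.25 in Unc5b, -4.02 in Th and -5.68 in Filip1l. Fosb held in 3 and Unc5b and Th in 5 of the 6 fits. Th, the enzyme that starts dopamine synthesis, averaged 373 ± 60.5 at 7.5 h and 354 ± 59.3 at 1 h in the SST line, and 32.9 ± 6.36 at 7.5 h and 1.32 ± 1.65 at 1 h in the VIP line. Filip1l averaged 55.6 ± 29.0 at 7.5 h and 67.2 ± 7.12 at 1 h in the SST line, and in the VIP line 48.5 ± 42.8 at 7.5 h, while it is listed at 0 in the VIP libraries at 1 h.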

How the results depend on the processing

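The 68 genes called (54 higher, 14 lower) came from 13 SST libraries without a replicate block. With the replicate block 2340 were called (1328 higher, 1012 lower), with the block in the 6 libraries alone 1603 (978 and 625; 63 of the 68), and in the 6 libraries without the block 35 (26 and 9); 29 of the 68 were among these 35. Leaving out 1 library gave 28 to 48 calls, 22 to 39 higher and 6 to 11 lower; the lowest was without 1 h replicate 2, and 24 of the 68 (19 higher, 5 lower) were kept in all 6. Pseudocounts of 0.1 and 16 gave 67 and 76 calls, a mean signal of at least 50 gave 65, no filter 68 and trimmed-mean scaling 77. The SST change differed from PV in 73 genes with the block, 10 with a pseudocount of 16 and 1 to 2 with 1 library left out; from VIP in 201, 20 and 7 to 13; from Emx in 200 with the block and 14 to 22 with 1 library left out. No named gene that passed in the main fit or in another setting had opposite signs in these fits. Sign changes of other genes and of list medians were not counted. With 3 pools a time, 1252 genes had an unadjusted p under 0.05. The planned tests on whole reads were not run, because 92.8% to 96.4% of low values were whole multiples of 1 step (within 0.1 read), too few to recover reads. The lower estimated depth at 7.5 h limits genes whose signal is a few reads.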
